A study of Homo sapiens and Mus musculus with 20 samples.

Results

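The 10 genes described here take part in the epithelial to mesenchymal transition (EMT), the change by which epithelial cells lose cell contacts and become motile. They were chosen by name, with earlier results of these data known, and not by a cutoff on a measured value. They are CDH1, CDH2, VIM, SNAI1, SNAI2, ZEB1, ZEB2, TWIST1, FN1 and TGFB2, out of 19768 protein-coding genes with a unique symbol in the GENCODE annotation on GRCh37 (hg19). Each gene was taken as its body plus 100 kb on either side, which gave 10 windows that did not overlap and covered 3002 kb. The windows held 28 of the 22877 ChIP-seq peaks of full-length Satb1, and 232 and 285 ATAC-seq regions of native MCF10A cells and of MCF10A cells expressing Satb1.

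The study mapped Satb1, a genome organizer with CUT domains and a homeodomain, in MCF10A, a non-tumorigenic human mammary epithelial line used because it lacks the native protein. Full-length Satb1, ∆HD (Satb1 without its homeodomain) and N-C1 (the N-terminal domain with the first CUT domain) were eGFP fusions in stable lines made with a cumate-inducible lentivirus and sorted to the same fluorescence, and ChIP-seq used an antibody against GFP. Full-length Satb1 was also mapped after 2 inhibitors of topoisomerases, camptothecin (topoisomerase I) and ICRF-193 (topoisomerase II), and ATAC-seq was done in native cells and in cells expressing Satb1. There was 1 peak list per condition, so no difference between conditions could be tested and every list is described by its own values. Native cells carry no transgene, so that the presence of Satb1 and the making of the line cannot be told apart.

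EMT is known for a switch between cadherins, in which epithelial CDH1 (E-cadherin) is lost and CDH2 (N-cadherin) is gained. The transcription factors SNAI1, SNAI2, ZEB1, ZEB2 and TWIST1 repress CDH1 and other epithelial genes, VIM (vimentin) and FN1 (fibronectin) are the classical cytoskeletal and matrix proteins of the mesenchymal state, and TGFB2 is a ligand of the TGF-β pathway that drives the change. Satb1 binds A/T-rich DNA. Its consensus was taken here as the exact word YTAWTAR (with either pyrimidine at Y, A or T at W and either purine at R). The reverse complement of YTAWTAR is the same consensus. The study searched for its motif with the program FIMO and not with an exact word, so the numbers of matches here are not its motif density.

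In hg19 the genes lie at chr16:68771195-68869440 (CDH1, plus strand), chr18:25512843-25757910 (CDH2, minus), chr10:17270240-17279592 (VIM, plus), chr20:48599517-48605423 (SNAI1, plus) and chr8:49830157-49834299 (SNAI2, minus). ZEB1 lies at chr10:31607424-31818742 (plus), ZEB2 at chr2:145121931-145278624 (minus), TWIST1 at chr7:19060614-19157259 (minus), FN1 at chr2:216225163-216300796 (minus) and TGFB2 at chr1:218518678-218617961 (plus).

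Promoters of all 8 mammary epithelial marker genes were in accessible regions in both ATAC-seq lists. None of the 4 leukocyte markers was accessible in native cells and 1 of 4 (CD4) in cells with Satb1. For the endothelium 1 of 2 genes found, CDH5, was accessible in both lists and TEK in neither, and both neural genes looked up, SOX10 and RBFOX3, were accessible in both. The whole lists held 50537 peaks for ∆HD, 62856 for N-C1, 24475 after camptothecin and 37350 after ICRF-193. Depth per list is unknown from the files, and absence of a region from a list is no evidence that it was unbound or closed.

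Full-length Satb1 had at least 1 peak in 9 of the 10 windows, against 58.9% of all protein-coding genes in windows made the same way. The same 9 windows held peaks of each of the other lists, where all genes gave 75.4% for ∆HD, 76.5% for N-C1, 54.5% after camptothecin and 65.1% after ICRF-193. The EMT windows were longer and richer in A/T than most, with a median length of 297446 bp against 226924 bp and a median A/T content of 60.5% against 55.8%. Among the 4221 genes whose windows were at least 60% A/T, 89.6% held a full-length peak at a median of 9.02 peaks per Mb. The 7 EMT genes above the same limit all held one, at a median of 8.41 peaks per Mb. Measured against A/T-rich windows the EMT genes thus had about the density of other genes.

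**Figure D1:**
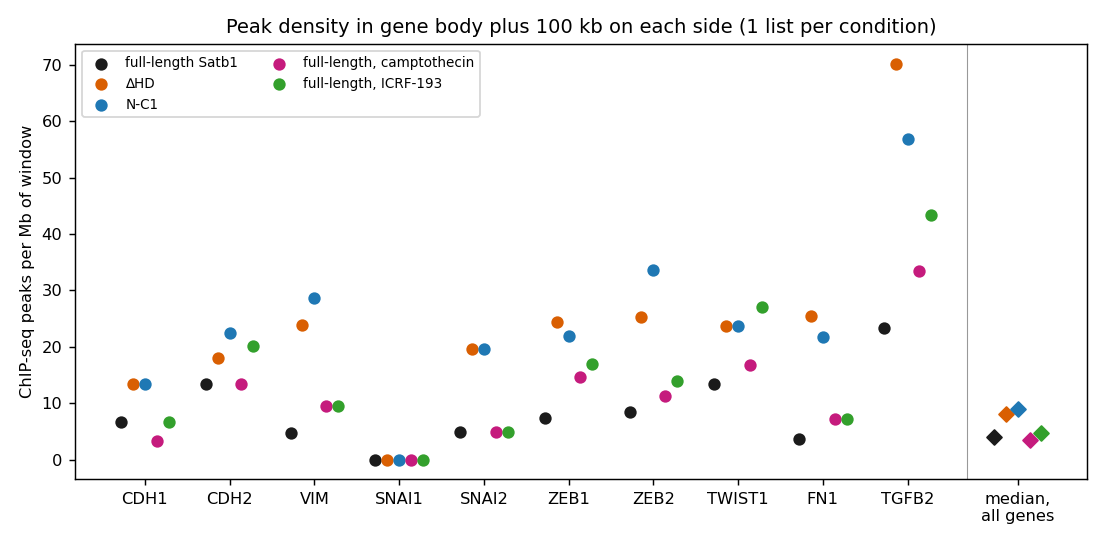
ChIP-seq peaks per Mb (y axis) in the window of each EMT gene (x axis) for the 5 lists, as circles, with the medians of 19768 genes as diamonds on the right. TGFB2 lay highest in every list, from 23.4 peaks per Mb for full-length Satb1 to 70.2 for ∆HD, and SNAI1 was at 0 in all 5.

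The windows differed widely among themselves. TGFB2 held 7 full-length peaks and CDH2 held 6, and such a number (6 or more) was found in 4.03% of all genes. TWIST1 held 4, ZEB1 and ZEB2 held 3 each, CDH1 held 2, and VIM, SNAI2 and FN1 held 1 each. By density the order was TGFB2 (23.4 per Mb), CDH2 and TWIST1 (13.5 each), ZEB2 (8.41), ZEB1 (7.29), CDH1 (6.71), SNAI2 (4.90), VIM (4.78) and FN1 (3.63). With single lists and counts this small, neighbours in that order were not told apart. SNAI1 held no peak of any of the 5 lists, and its window had the lowest A/T content (49.4%) and the fewest consensus matches (28.2 per 100 kb) of the 10.

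**Figure D2:**
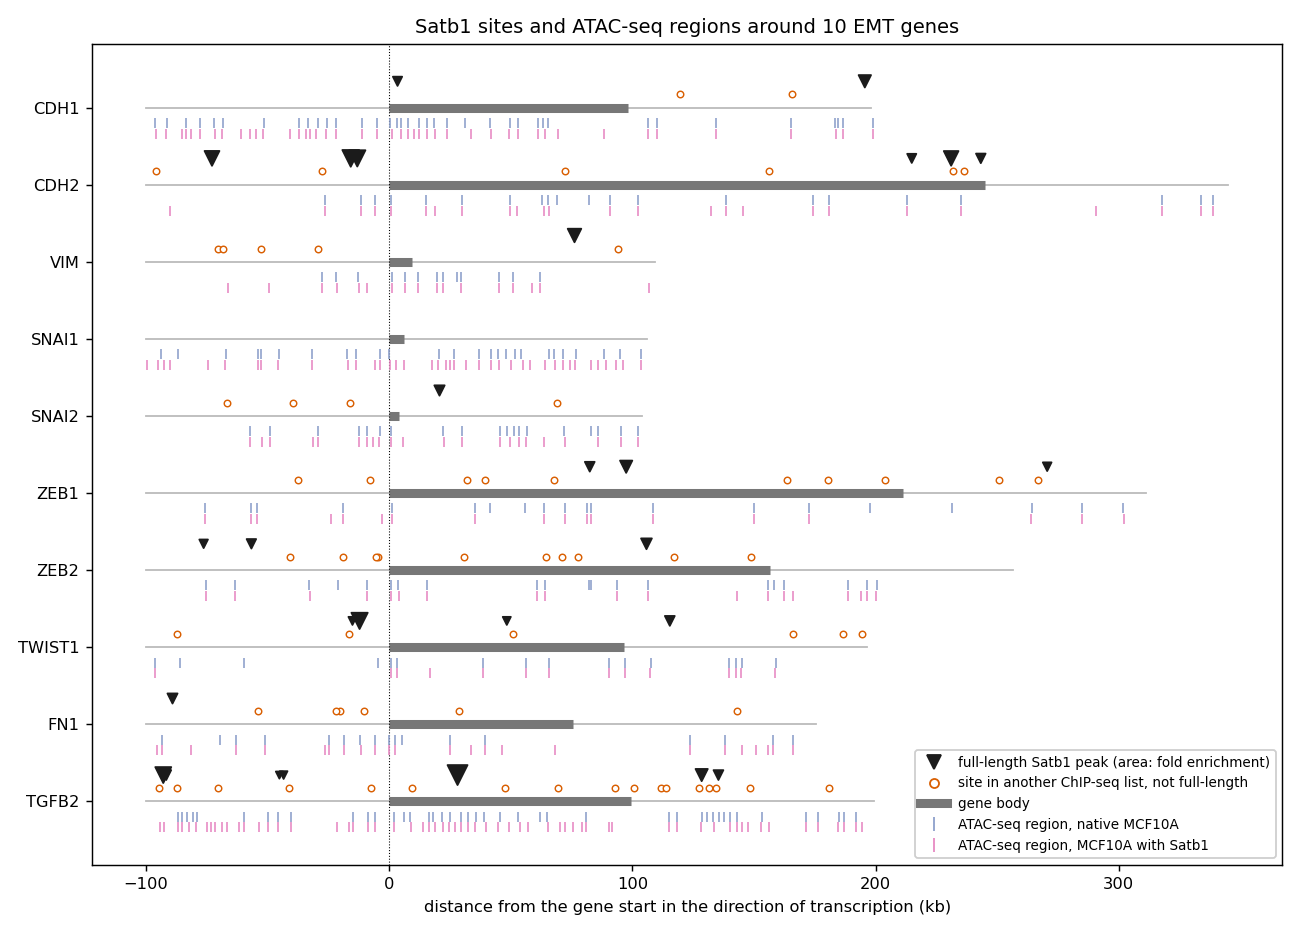
Map of the 10 windows by distance from the gene start in the direction of transcription (kb, x axis), with the gene body as a thick grey bar. Black triangles mark the 28 full-length Satb1 peaks with area in proportion to fold enrichment, open circles mark the sites found only in other ChIP-seq lists, and ticks below each line mark ATAC-seq regions of native cells (blue) and of cells with Satb1 (pink). Most full-length sites lay away from gene starts, and SNAI1 had none.

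Every one of the 10 promoters (1000 bp upstream to 100 bp downstream of a protein-coding transcript start) was in an accessible region in both ATAC-seq lists, as were those of 75.8% of all genes (76.9% in native cells and 80.4% in cells with Satb1). No EMT promoter held a full-length Satb1 peak, and 0.84% of all genes had one there. Thus repressors of the epithelial state and mesenchymal genes had open promoters in an epithelial line both without and with Satb1. Accessibility of a promoter does not give the level of its transcript, which was not analysed here.

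Fold enrichment of a MACS2 region is its signal over the local background of the same list. At the epithelial CDH1 promoter it was 13.2 in native cells over 2263 bp and 7.72 in cells with Satb1 over 4237 bp. At the CDH2 promoter it was 9.25 and 7.14, with widths of 2725 and 2796 bp. VIM had the highest values of the 10 in both lists, 19.9 over 4582 bp and 14.5 over 4908 bp.

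Among the transcription factors SNAI2 stood highest, at 14 in native cells and 11.8 in cells with Satb1. ZEB1 had 12.7 and 9.47, SNAI1 had 10.4 and 7.23, TWIST1 had 9.37 and 7.15, and ZEB2 had 7.68 and 6.60. FN1 was the weakest promoter in both lists, with 3.59 and 3.82, and the only one of the 10 whose value was not lower in cells with Satb1. TGFB2 had 8.67 over 4956 bp in native cells and 5.97 over 9087 bp in cells with Satb1, the widest of the promoter regions. A lower value in the list of cells with Satb1 was found for 93% of genes accessible in both lists, and the 9 of 10 seen here are therefore the pattern of the whole list. The region was wider in cells with Satb1 for 8 of 10 EMT promoters, against 74.4% of genes.

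More of the window was accessible in cells with Satb1 for 8 of the 10 genes, against 90.2% of all genes. The number of regions was higher in 7 of the 10, against 73.8%. TGFB2 went from 15.7% to 29.2% of its window and SNAI1 from 15.9% to 28.5%. A gain of over 10 percentage points was seen for those 2 of 10 and for 30.5% of all genes. CDH1 (13.3% and 16.4%), VIM (10.1% and 12.8%), SNAI2 (8.92% and 11.4%) and FN1 (4.49% and 5.54%) had smaller gains, and CDH2 (3.49% and 3.76%) and ZEB1 (3.28% and 3.31%) were nearly the same in both lists. The remaining 2 genes went the other way, ZEB2 from 4.90% to 4.08% and TWIST1 from 4.21% to 3.48%. Over all 10 windows 7.66% of the length was accessible in native cells and 10.5% in cells with Satb1, where the whole genome had 5.76% and 8.95%. Against other gene windows the EMT windows were less covered. Their median was 6.91% in native cells and 8.45% in cells with Satb1, where all protein-coding genes had 8.48% and 12.8%. TGFB2 had the densest Satb1 peaks and SNAI1 had none, and a link between peaks and gains was not tested.

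**Figure D3:**
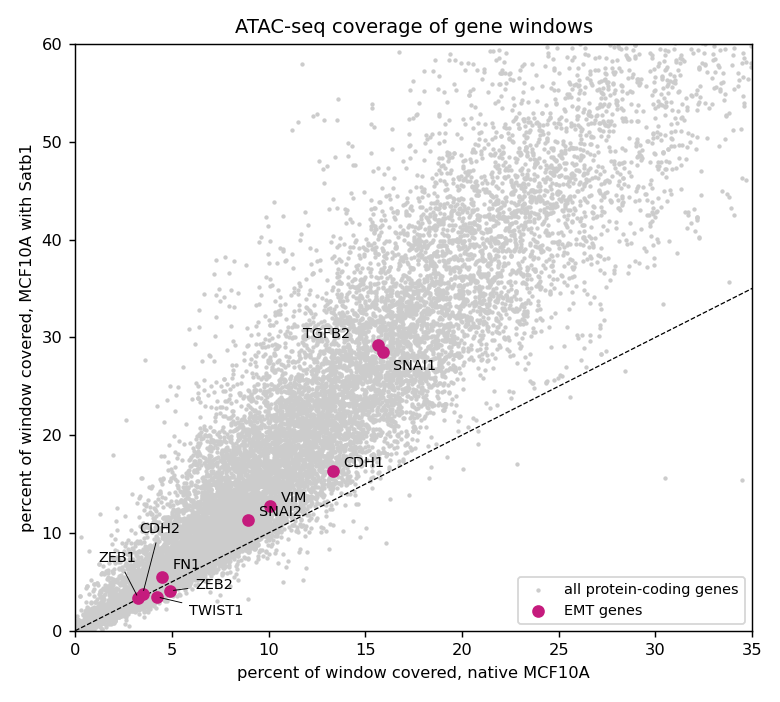
Percent of each gene window covered by ATAC-seq regions in native MCF10A cells (x axis) and in MCF10A cells with Satb1 (y axis), with EMT genes in magenta, all other protein-coding genes in grey and a dashed line where both are equal. The 2 genes TGFB2 and SNAI1 lie well above the line, ZEB2 and TWIST1 lie below it, and 740 genes fall outside the axes.

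Distal regions were those touching no protein-coding promoter. Of 212 distal native regions in the windows, 191 (90.1%, exact 95% interval 85.3 to 93.8%) overlapped a region of cells with Satb1, against 87.9% over the genome. Of 264 distal regions in cells with Satb1, 183 (69.3%, 63.4 to 74.8%) overlapped a native region, against 68.2% over the genome. Both shares thus lay near the whole lists. These intervals cover counting error only.

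The regions seen only in cells with Satb1 were unevenly spread, with 25 of the 81 around TGFB2 and 16 around SNAI1. They were weak, with a median fold enrichment of 2.08 and a highest value of 4.44, which was reached 90.2 kb upstream of CDH2. FN1 had 9 such regions, the strongest at 3.37 in its own intron. Native-only regions numbered 21 in all and up to 4 in a window, in ZEB1 and ZEB2. Their highest value was 3.74 in an intron of ZEB1, and TWIST1 had 3.72 at a region 59.8 kb upstream. At ZEB1, ZEB2 and TWIST1 native-only regions outnumbered those seen only with Satb1 (4 and 2, 4 and 3, 3 and 1).

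Positions of Satb1 sites are given from the gene start, negative values being upstream. Of the 28 full-length sites, 15 were intergenic and 12 intronic, 9 of these in an EMT gene itself, and 1 was in an untranslated exon of HDAC9 within the TWIST1 window. A single site lay within 10 kb of an EMT gene start and 5 lay within 20 kb. Every site held at least 1 YTAWTAR match in the 400 bp around its midpoint, as did 96.6% of all full-length peaks. Of all 400-bp tiles of the genome 25.8% held one. Centred on the summit, 27 of the 28 sites held one, the exception being the VIM site. The study found its Satb1 motif de novo in its own ChIP-seq peaks, so these shares are no independent support for the consensus. The mean around the midpoint was 2.61 matches, against 2.75 over the whole list. A/T content was above that of the flanks at 27 of the 28, as at 94.7% of all full-length peaks. The median fold enrichment was 7.64, from 3.90 to 30.6, against 7.32 over the whole list.

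CDH1, the epithelial cadherin, had the only full-length site near a start. It lay in a CDH1 intron at 3.42 kb, with a fold enrichment of 6.53 for full-length Satb1, 8.47 for ∆HD and 7.71 for N-C1, and it was in neither drug list. It was also the least A/T-rich region among those printed here. In cells with Satb1 the accessible promoter region ran into the near edge of the peak, and in native cells a separate region with a fold enrichment of 2.41 overlapped it. The sequence is shown because it joins a Satb1 site to an epithelial promoter region, in hg19 on the plus strand with consensus matches in capitals here and below.

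CDH1 intron, chr16:68774467-68774766: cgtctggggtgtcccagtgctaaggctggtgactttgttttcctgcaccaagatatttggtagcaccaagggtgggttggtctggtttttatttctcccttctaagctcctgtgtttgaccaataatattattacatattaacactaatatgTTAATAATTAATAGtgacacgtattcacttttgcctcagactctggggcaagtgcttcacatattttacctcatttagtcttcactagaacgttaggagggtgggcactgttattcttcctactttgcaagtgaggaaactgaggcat

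The matches in it lie side by side, 7 bp from start to start. The other CDH1 window site, at 195.6 kb in an intron of TANGO6, was in all 5 lists, with 11.8 for full-length Satb1, 12.7 for ∆HD, 16.3 for N-C1, 6.65 after camptothecin and 10.3 after ICRF-193.

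CDH2, the mesenchymal cadherin, had 3 strong sites upstream and 3 sites near its 3′ end. None of its 12 sites over the 5 lists was in an ATAC-seq region. The strongest was at -15.8 kb, with 21.6 for full-length Satb1, 23 for ∆HD, 35.8 for N-C1, 20.2 after camptothecin and 25.1 after ICRF-193. The site at -13.1 kb had 20.3 for full-length Satb1 but 5.56 for ∆HD and 11.8 for N-C1, with 21.7 and 29.2 after the drugs. The site at -72.9 kb had 16.9 for full-length Satb1, 6.69 for ∆HD and 14.2 for N-C1, with 19.7 and 26.7 after the drugs. Both truncated forms thus had listed values above full-length Satb1 at -15.8 kb, ∆HD only slightly, and below it at -13.1 kb. Each value is relative to its own list's background, so the order at a single site was not tested.

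Over the genome 6.1% of full-length peaks found in both constructs' lists had both values below the full-length value, and among the EMT genes the 2 sites were the ones at -13.1 and -72.9 kb of CDH2.

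Whether the number or spacing of matches goes with these orders was not tested. In the 300 bp around the summit the -15.8 kb site and the -13.1 kb site held 5 matches each and the -72.9 kb site held 1. In the -13.1 kb site 4 of the matches form 2 overlapping pairs 3 bp apart, and those of the -15.8 kb site lie 28 to 101 bp apart. The ZEB1 site at 82.5 kb also has 2 pairs 3 bp apart, though its other spacings differ. Both truncated forms had higher listed values than full-length Satb1 there (19.2 and 11.3 against 7.33). Within the gene, the site at 231.1 kb had the highest N-C1 value of all EMT sites, 41.8, with 16.5 for full-length Satb1 and 23.5 for ∆HD. The remaining CDH2 sites, at 214.9 and 243.3 kb, were weak in the full-length list (6.37 and 7.05).

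SNAI2, a repressor of CDH1, had a single full-length site, 20.3 kb from its start and beyond its end. Its fold enrichment was 8.17, with 10.1 for ∆HD, 11 for N-C1, 5.91 after camptothecin and 4.66 after ICRF-193, so that both drug lists stood below the untreated list.

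ZEB1 and ZEB2, zinc-finger repressors of epithelial genes, carried their strongest sites inside their own introns. For ZEB1 that was the site at 97.5 kb, with 11.6 for full-length Satb1, 15.4 for ∆HD and 19.1 for N-C1. The ZEB1 site at 82.5 kb held 5 matches in 400 bp yet had only 7.33 for full-length Satb1 and 7.73 after camptothecin, while ∆HD had 19.2, N-C1 had 11.3 and ICRF-193 gave 11.2. It is the full-length site that combined the densest matches with a fold enrichment near the median of the list. Its 5 matches overlap in part, their starts lying 30, 3, 53 and 3 bp apart.

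ZEB1 intron, chr10:31689751-31690050: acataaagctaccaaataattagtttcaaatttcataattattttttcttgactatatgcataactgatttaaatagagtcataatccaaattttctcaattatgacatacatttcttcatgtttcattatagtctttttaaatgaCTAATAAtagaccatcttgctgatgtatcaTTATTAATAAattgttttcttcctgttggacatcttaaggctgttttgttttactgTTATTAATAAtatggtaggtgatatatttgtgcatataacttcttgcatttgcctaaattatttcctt

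The strongest ZEB2 site lay in an intron at 105.8 kb, with 8.97 for full-length Satb1, 16.2 for ∆HD and 17.2 for N-C1. The ZEB2 sites at -56.7 and -76.3 kb had 6.91 and 5.68 for full-length Satb1. All 3 ZEB2 sites had higher values in both truncated forms than in the full-length list, as did 22 of the 27 EMT sites found in both of those lists and 71.7% of such peaks over the genome.

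TWIST1, a basic helix-loop-helix factor, had its strong site upstream, at -12.2 kb. Fold enrichment there was 20.3 for full-length Satb1, 19.6 for ∆HD, 40.6 for N-C1, 18.2 after camptothecin and 23.5 after ICRF-193. A neighbour at -15.1 kb was near the bottom of the list (5.0) and was missing from the ∆HD list, the only such case among the 28. The TWIST1 site at -12.2 kb is shown because most of its matches lie in an inverted repeat.

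TWIST1 upstream, chr7:19169297-19169596: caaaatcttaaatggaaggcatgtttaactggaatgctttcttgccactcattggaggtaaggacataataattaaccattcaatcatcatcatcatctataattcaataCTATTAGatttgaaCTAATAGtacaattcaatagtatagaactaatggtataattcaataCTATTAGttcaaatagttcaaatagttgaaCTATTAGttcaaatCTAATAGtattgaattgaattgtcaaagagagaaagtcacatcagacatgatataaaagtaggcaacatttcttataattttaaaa

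The stretch holds 5 matches, and 4 of them lie in pairs 14 bp apart at both ends of the cluster. A 31-bp word of it, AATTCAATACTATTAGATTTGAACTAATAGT, occurs again as its reverse complement 67 bp further on. An inverted repeat of at least that length within 300 bp was found at 0.114% of all full-length peaks, whose median was 9 bp. The remaining TWIST1 sites, at 48.4 kb in the long TWIST1 transcript unit of this annotation and at 115.4 kb in HDAC9, had 5.0 and 7.46 for full-length Satb1.

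VIM and FN1, the cytoskeletal and matrix genes, had 1 full-length site each. The VIM site lay 76.0 kb from the start, beyond the gene, and was 1575 bp wide, the widest of the 28. ∆HD had its highest value in any EMT window there, 47.1, against 14.1 for full-length Satb1, 18.4 for N-C1, 15.3 after camptothecin and 19.8 after ICRF-193. FN1 had a single full-length site at -89.4 kb, with 7.82 for full-length Satb1, 15.3 for ∆HD, 13.8 for N-C1, 6.64 after camptothecin and 11 after ICRF-193. The FN1 window held 7 ∆HD and 6 N-C1 peaks, and that of VIM held 5 ∆HD and 6 N-C1 peaks. Both of these lists were longer than the full-length list over the whole genome.

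TGFB2, the ligand, had the strongest site of all 28 in an intron of its own at 28.1 kb. Fold enrichment was 30.6 for full-length Satb1, above 97.4% of the whole list, 40.9 for N-C1, 31.5 after camptothecin and 37.9 after ICRF-193. ∆HD was the one list below, with 14.4. The site had the highest A/T content of the 28, 79.5% over 200 bp, but few matches.

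TGFB2 intron, chr1:218546630-218546929: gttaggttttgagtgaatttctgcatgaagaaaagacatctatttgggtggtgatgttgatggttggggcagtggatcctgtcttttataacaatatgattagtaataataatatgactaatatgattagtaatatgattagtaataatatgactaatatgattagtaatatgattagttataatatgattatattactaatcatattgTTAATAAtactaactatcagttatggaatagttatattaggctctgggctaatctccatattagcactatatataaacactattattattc

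A single match stands in this stretch, while the word TAATATGA occurs 7 times without overlap. At least as many copies of any 8-base word were found at 1.13% of full-length peaks, and the 20-bp word TAACAATATGATTAGTAATA recurs as its reverse complement, a length reached at 0.935%. The repeats of this site and of the TWIST1 site were looked for after the sequences had been read.

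The other TGFB2 sites formed pairs. At -92.9 kb the full-length value was 19.5, with 27.5 for ∆HD and 32.4 for N-C1, next to a site of 7.46 at -91.7 kb. The pair at -45.2 and -43.4 kb in RRP15 introns was weak, 3.90 and 4.65. The pair at 128.5 and 135.4 kb, beyond the gene, had 11.5 and 7.43 for full-length Satb1, and both lay in accessible regions of both ATAC-seq lists, with native values of 8.28 and 10.4 and values of 5.0 and 5.89 in cells with Satb1.

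Few Satb1 sites were accessible. Of the 28, 3 (10.7%, exact 95% interval 2.27 to 28.2%) overlapped a native region and 4 (14.3%, 4.03 to 32.7%) a region of cells with Satb1, against 3.42% and 4.64% of the whole list. The 4 sites accessible in either list, against 5.23% of the whole list, were the CDH1 intron site and 3 sites of TGFB2, at -92.9, 128.5 and 135.4 kb. Both genes lay in windows with many accessible regions, and the intervals are wide. An overlap of 1 bp counted here. With the summit required inside the region, 2 of the 28 sites remained in each list (7.14%). The TGFB2 site at -92.9 kb touched only a weak region (1.94), in cells with Satb1. Of 75 ∆HD peaks in the windows 8 were in native regions (10.7%, 4.72 to 19.9%, against 4.6% of that list), and of 75 N-C1 peaks 4 were (5.33%, 1.47 to 13.1%, against 3.73%). The peaks of all 6 CDH2 sites, 4 TWIST1 sites and 6 ZEB sites lay outside the regions of both lists. Around the ZEB1 peak at 82.5 kb, however, the site merged over the 5 ChIP-seq lists was wider and touched a region of each ATAC-seq list (3.61 in native cells and 2.42 in cells with Satb1).

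The full-length sites of the EMT genes were nearly all found again in the other lists. Of the 28, 27 were in the ∆HD list (96.4%, 81.7 to 99.9%), 28 in the N-C1 list (at least 87.7%), 25 after camptothecin (89.3%, 71.8 to 97.7%) and 27 after ICRF-193 (96.4%, 81.7 to 99.9%). The whole list gave 88.6%, 95.2%, 81.7% and 92.9%, and 24 of 28 sites were in all 4 other lists, against 70.8%. The sites missing from the camptothecin list were at CDH1 (3.42 kb), CDH2 (243.3 kb) and ZEB2 (-76.3 kb), of which only the CDH1 site was missing after ICRF-193 too.

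**Figure D4:**
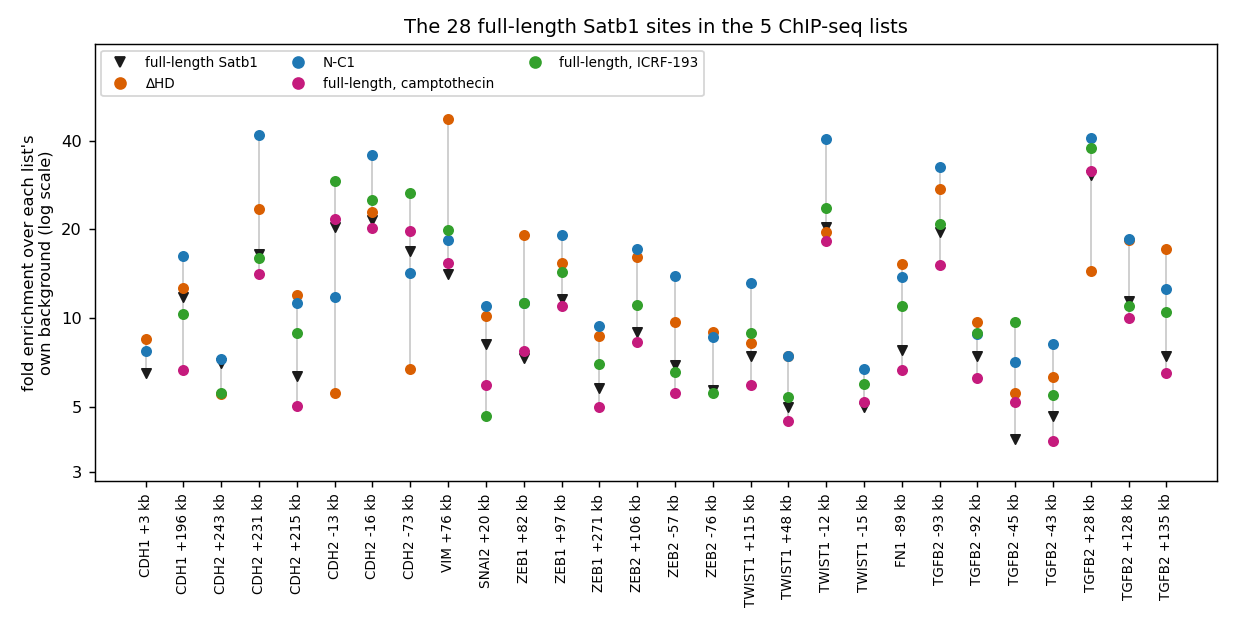
Fold enrichment (y axis, log scale) of each of the 28 full-length Satb1 sites, named by gene and distance from its start (x axis), in the 5 ChIP-seq lists, with grey lines joining the lowest and highest value. N-C1 stands highest at many sites, ∆HD stands far below at the CDH2 sites -13 and -73 kb and at TGFB2 +28 kb, and ∆HD stands highest at VIM +76 kb.

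Listed fold enrichment was higher than in the full-length list at 26 of 28 shared sites for N-C1 (86.6% in the whole list), at 22 of 27 for ∆HD (74.9%), at 20 of 27 after ICRF-193 (75.3%) and at 7 of 25 after camptothecin (40.5%). Each value is relative to its own list's background, so only the count against the whole list can be read. Those counts were near the whole list for all 4. The 5 sites with a lower ∆HD value were 3 of CDH2, the TWIST1 site at -12.2 kb and the TGFB2 intron site. At 13 of the 25 sites in both drug lists the camptothecin value lay below and the ICRF-193 value above the untreated list, against 39.3% of such peaks over the genome.

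The 5 lists together gave 94 separate sites in the windows. Besides the 28 full-length sites, 25 were in a drug list without being in the full-length list, and 41 were in the lists of the truncated forms only, 15 of them in both. TGFB2 had 24 of the 94, ZEB1 and ZEB2 had 13 each, CDH2 had 12, TWIST1 had 10, FN1 had 7, VIM had 6, SNAI2 had 5, CDH1 had 4 and SNAI1 had none. ZEB2 had 8 sites seen only with truncated forms, against 3 full-length sites. The same classes of sites were not counted over the genome. All 4 other lists were longer than the full-length list there (50537, 62856, 24475 and 37350 peaks against 22877). An excess of sites outside the full-length list is therefore not particular to the EMT genes or to ZEB2. In TGFB2, 8 of the 24 sites were in an ATAC-seq region.

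The windows held 2555 YTAWTAR matches, of which 82 (3.21%, exact 95% interval 2.56 to 3.97%) lay inside a full-length peak, against 2.71% over the genome. The share was highest for TGFB2 (19 of 284, 6.69%), followed by CDH2 (21 of 459, 4.58%) and TWIST1 (13 of 311, 4.18%). It was lowest for FN1 (2 of 236, 0.848%) apart from SNAI1, where 0 of 58 allowed a share of up to 6.16%. FN1 had 85.6 matches per 100 kb, close to the 91.2 of the median EMT gene, and its 2 bound matches lay in 1 peak. Its exact 95% interval, 0.103 to 3.03%, holds the share of the genome. That interval overlaps those of CDH2 (2.85 to 6.91%) and TWIST1 (2.24 to 7.04%), but not that of TGFB2 (4.08 to 10.25%). Matches within a peak are no independent observations, so these genes were not told apart by their shares.

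Matches with neighbours were in peaks more often. Neighbours were counted up to 200 bp on either side of a match. A match with none was in a full-length peak in 7 of 1621 cases (0.432%), and the share was 26 of 673 (3.86%) for pairs, 19 of 198 (9.60%) for 3, 10 of 43 (23.3%) for a group of 4 and 20 of 20 for 5 or more. The genome gave 0.287%, 2.32%, 11.1%, 32.0% and 69.5%. For 4 or more together it was 30 of 63, against 42.9% over the genome. The 20 matches counted in groups of 5 or more came from only 4 places, at CDH2 (-13.1 and -15.8 kb), ZEB1 (82.5 kb) and TWIST1 (-12.2 kb), and are no independent observations.

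**Figure D5:**
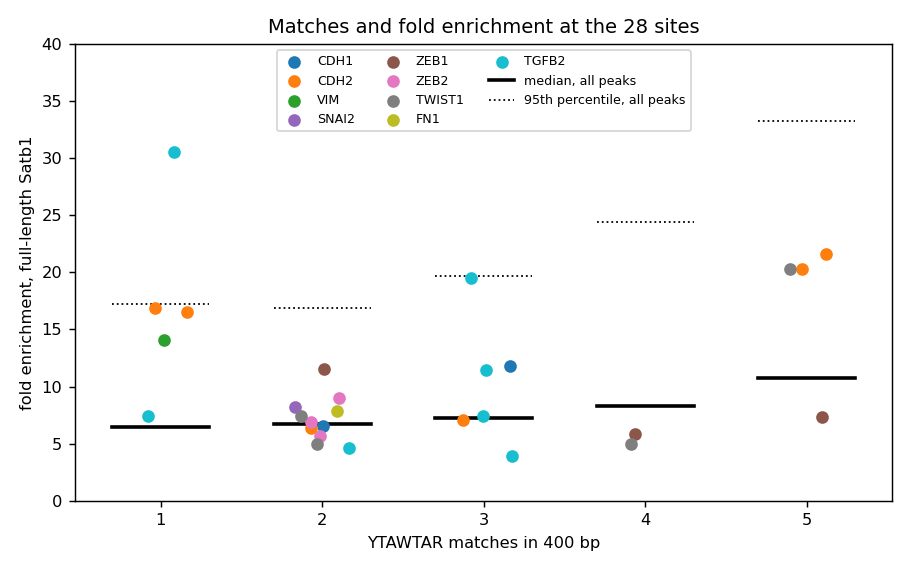
Fold enrichment of full-length Satb1 (y axis) at the 28 EMT sites against the number of YTAWTAR matches in 400 bp (x axis, points shifted sideways for clarity), coloured by gene, with the median (solid bar) and the 95th percentile (dotted bar) of all full-length peaks with that number. The TGFB2 intron site has 1 match and a value of 30.6, far above the 95th percentile of 17.2, and the ZEB1 site with 5 matches lies below the median of 10.8.

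At least 5 matches were found at 4 of the 28 sites and at 9.32% of all full-length peaks. Of these 4, 3 had a fold enrichment of at least 20.3, and the ZEB1 intron site had 7.33. Sites with 1 match went from 7.43 to 30.6 and sites with 2 from 4.65 to 11.6. The whole list had medians of 6.50 for 1 match, 6.73 for 2 and 10.8 for 5. The 2 sites with 4 matches, at ZEB1 and TWIST1, had 5.81 and 5.0.

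A wider list of 41 genes of the same pathway was chosen by name. Its windows had a median A/T content of 55.4% and 57.9 matches per 100 kb, against 60.5% and 91.2 for the 10 EMT genes. Full-length peaks lay in 26 of 41 windows (63.4%, against 58.9% of all genes) at a median of 3.76 per Mb, where the 10 EMT genes had 7 and all genes 4.01. Promoters of 37 of the 41 were accessible in native cells and of 38 in cells with Satb1, the difference being MMP9, a matrix metalloproteinase. No promoter of the 41 held a full-length peak, and 36 of 41 windows had more accessible length in cells with Satb1.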

How the data were processed

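From MCF10A, 5 ChIP-seq and 2 ATAC-seq peak lists were used, with 1 list per condition. The 3 mouse lists, the inputs, the N-terminal construct and TMP-seq were not used. As the authors describe it, reads were trimmed (cutadapt), aligned to hg19 (Bowtie2) and passed to MACS2, with input DNA as the control for ChIP-seq and with the broad setting for ATAC-seq. The versions of Bowtie2 and MACS2 and the pooling of replicates are not given in the sources used here. The deposited fold enrichment is the authors' ratio of pileup to local background in each list. Significance stands in the deposited lists as −log10 of the p-value and of the q-value from MACS2. The score column of the deposited lists repeats the q-value on another scale.

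Gene windows, promoters and exons came from GENCODE protein-coding genes lifted to GRCh37, and 1 bp of overlap counted as shared. YTAWTAR matches, including those that overlap each other, were counted over 400 bp about the centre of a peak, with CTAATAR as an alternative. A/T content was taken over 200 bp, with flanks 1000 to 2000 bp away. Sequences were read from GRCh37 in 300 bp around the summit. Inverted repeats and copies of 8-base words in those stretches were compared with the same stretches of all full-length peaks.

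The study's methods give a range of depth for its ChIP-seq libraries as a whole, the depth of each list is unknown, and list length can change with it. No test was run. Shares carry exact 95% intervals (Clopper-Pearson) for counting error alone. Named sites were every full-length peak where a window held 3 or fewer, otherwise the 3 strongest, with the strongest site of each other list and the peak with most matches. Weaker sites of CDH2, TWIST1 and TGFB2 were named after their values were seen. The genes, lists and measures were chosen with earlier results of these data known. Overlap, coverage and match functions were checked on simulated data. Python 3.11.15, numpy 2.4.6, pandas 2.3.3, scipy 1.17.1, pysam 0.24.0 and samtools 1.23.1 were used. Alternatives changed the window, thresholds, overlap, promoter and consensus.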

Additional observations from a re-analysis of the deposited data

How the results depend on the processing

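Of 46 alternatives over 15 results, 40 left a share inside its exact 95% interval, or a count or covered length within 1.5 times, and 6 did not. With gene bodies alone, 9 full-length sites remained of 28. With CTAATAR on either strand in place of YTAWTAR, 67.9% of the 28 sites held a match instead of 100%. A reciprocal overlap of 50% lowered the shared part of distal native regions from 90.1% to 67.5% and that of distal regions in cells with Satb1 from 69.3% to 54.2%, while a −log10 q of at least 5 raised the latter to 84.1%. With a fold enrichment of at least 5 in both lists, 100% of the 24 sites left were in the ∆HD list, against 96.4%. Counting only the outermost start, 9 of 10 promoters were accessible in each list. No paired analysis was possible because each condition has 1 list and no value comes from a test. Leaving out a replicate was not possible for the same reason. What the lists cannot show is signal under each list's threshold, and the precision of shares over 28 sites is low.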

Other observations

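The EMT windows held 19 groups in which a YTAWTAR match had at least 3 others within 200 bp on either side. A full-length Satb1 peak was found at 8 of them and not at 11, and of the single matches in such groups 30 of 63 were in a peak, against 42.9% over the genome. Of the 11 groups without a full-length peak, 3 were in the list of a truncated form and 6 were in none of the 5 ChIP-seq lists, while the rest were in drug lists only. The 6 groups found in no list belonged in pairs to CDH2 (at 188.5 and 155.3 kb from the start), ZEB1 (at -95.2 and -79.4 kb) and TWIST1 (at 104.3 and -58.8 kb). Their A/T content over 200 bp ranged from 64.5% to 78%, and that of the TWIST1 group at -58.8 kb lay above the 75.5% of the strongly enriched TWIST1 group at -12.2 kb. The TWIST1 group at 165.9 kb was absent from the untreated full-length list but had a fold enrichment of 4.47 after camptothecin and 9.29 after ICRF-193.

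The CDH2 group at -27.8 kb, with 4 matches, was in the ICRF-193 list alone, at 4.60. The CDH1 group at 119.2 kb, with 4 matches counted up to 200 bp on either side of its core, was in the lists of both truncated forms (5.75 for ∆HD and 5.18 for N-C1) and not in that of the full-length protein.

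Sites merged over the 5 ChIP-seq lists are wider than single peaks. Of the 28 merged sites with a full-length peak, 4 (14.3%, exact 95% interval 4.03 to 32.7%) were in native ATAC-seq regions and 5 (17.9%, 6.06 to 36.9%) in regions of cells with Satb1. Of the 41 sites found only with truncated forms, 3 (7.32%, exact 95% interval 1.54 to 19.9%) were in native ATAC-seq regions and 6 (14.6%, 5.57 to 29.2%) in regions of cells with Satb1. Of the 25 sites in a drug list but not in the full-length list, 1 (4%, 0.101 to 20.4%) was in a region of each list. ATAC-seq regions covered 7.66% and 10.5% of the windows, which is not the share expected of sites counted at 1 bp of overlap. The same classes of merged sites were not counted over the genome. Of the narrower single peaks in the 5 whole lists, 3.17% to 4.6% were in native regions. In regions of cells with Satb1 it was 3.92% to 5.46%. The intervals overlap widely and cover counting error only.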
